A study of Mus musculus with 3 samples.

Results

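The genes described here are 9 transcription factors that build or tune macrophages: Spi1 (which encodes PU.1), Cebpa, Cebpb, Cebpd, Runx1, Maf, Mitf, Tfec and Tfeb. The rule that picks them uses names alone, though it was written with earlier results of these data known, and they make up 9 of 55536 annotated genes. Each symbol was matched to 1 gene identifier of mouse annotation M21.

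The RNA came from macrophages grown from bone marrow of C57BL/6J mice, a common inbred strain. All cultures had received Lipid A, the part of bacterial lipopolysaccharide that Toll-like receptor 4 binds, at 100 ng/ml for 12 hours. After 12 hours without it they were given 100 ng/ml Lipid A again, for 40 minutes. Ribosomal RNA was removed from 1 µg of total RNA of the cytosolic fraction, and 3 biological replicates of this 1 treatment were sequenced. No transgene or mutant allele is named in the labels, and age and sex were not collected. Untreated cells, cells stimulated once and nuclear RNA were not analysed here, so every value is a level under this treatment and not a response to it. The replicates carry the same donor label, and nothing used here says whether the cultures came from separate animals. The spread between them may therefore be technical in part.

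PU.1 is an ETS-family factor that opens and marks most macrophage enhancers, and it works beside C/EBP factors, which bind as dimers through a basic leucine zipper. RUNX1 acts earlier in blood formation and binds DNA with its partner CBFB. MITF, TFEB, TFEC and their relative TFE3 are basic helix-loop-helix leucine zipper proteins, a family tied to lysosomal and autophagy genes, and c-MAF supports the programme of resident and anti-inflammatory macrophages. In lipopolysaccharide-treated macrophages Cebpb and Cebpd are known as inducible genes.

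Several of these genes have more than one promoter, and results below give shares by the annotated start of their transcripts. RefSeq promoter windows of build GRCm38.p6, matched by symbol, were on hand for 6 of the 9 genes (11 entries) and for Spi1, Cebpd and Maf none was matched. The windows below hold at most 250 bases before a start, with annotated exon sequence removed, and run 5′ to 3′ on the strand of the gene. The first pair are the distal and proximal promoters of Runx1, chr16:92826150-92826324 and chr16:92697330-92697579, both on the minus strand. The next pair are the upstream and the melanocyte-type downstream promoters of Mitf, chr6:97806808-97807051 and chr6:97991533-97991782, both on the plus strand. The last pair belong to Tfec, the gene with the highest share of intron-retaining RNA, at chr6:16898442-16898691 on the minus strand, and to Cebpb, the gene that varied most between libraries, at chr2:167688665-167688914 on the plus strand. Capitals mark matches, on either strand, to 1 of 8 short motifs: the RUNX motif TGTGGT, the PU box GAGGAA, the E-box CACGTG bound by MiT/TFE proteins, the cyclic-AMP response element (CRE) TGACGTCA, its core TGACG, the C/EBP motif TTGCNNAA, CCAAT and the TATA motif TATAAA. The core lies inside the full CRE on both strands, so a full match counts under both.
Runx1 distal: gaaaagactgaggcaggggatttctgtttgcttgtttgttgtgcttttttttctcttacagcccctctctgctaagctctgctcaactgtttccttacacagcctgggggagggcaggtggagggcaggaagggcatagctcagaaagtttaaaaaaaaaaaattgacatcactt
Runx1 proximal: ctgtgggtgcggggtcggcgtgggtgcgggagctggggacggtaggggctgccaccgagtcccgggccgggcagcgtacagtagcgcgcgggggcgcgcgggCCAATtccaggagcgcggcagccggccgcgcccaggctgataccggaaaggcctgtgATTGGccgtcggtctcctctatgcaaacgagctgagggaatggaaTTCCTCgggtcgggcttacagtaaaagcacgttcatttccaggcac
Mitf upstream: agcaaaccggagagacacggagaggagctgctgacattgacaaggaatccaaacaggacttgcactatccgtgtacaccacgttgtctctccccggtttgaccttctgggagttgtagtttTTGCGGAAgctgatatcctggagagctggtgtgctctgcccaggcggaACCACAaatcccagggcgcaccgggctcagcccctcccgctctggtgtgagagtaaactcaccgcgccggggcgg
Mitf downstream: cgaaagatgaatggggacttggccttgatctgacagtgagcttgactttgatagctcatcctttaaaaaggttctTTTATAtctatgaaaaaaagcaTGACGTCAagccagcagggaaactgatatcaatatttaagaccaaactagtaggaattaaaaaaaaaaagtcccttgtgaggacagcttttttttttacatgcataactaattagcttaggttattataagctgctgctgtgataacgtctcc
Tfec: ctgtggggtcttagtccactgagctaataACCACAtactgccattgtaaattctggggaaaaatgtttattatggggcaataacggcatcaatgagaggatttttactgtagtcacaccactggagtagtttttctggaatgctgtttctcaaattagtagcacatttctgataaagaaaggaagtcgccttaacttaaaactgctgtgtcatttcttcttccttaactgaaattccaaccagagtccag
Cebpb: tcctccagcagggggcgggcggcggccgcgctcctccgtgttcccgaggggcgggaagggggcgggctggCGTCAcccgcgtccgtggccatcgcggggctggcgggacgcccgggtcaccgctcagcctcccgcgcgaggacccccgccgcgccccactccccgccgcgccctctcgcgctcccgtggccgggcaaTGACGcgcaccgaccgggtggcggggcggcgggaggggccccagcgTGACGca

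The windows differ in composition. The Runx1 distal window was 45.1% GC with 0 CpG dinucleotides in 175 bases, whereas the proximal window was 67.6% GC with 27 CpG in 250 bases. The distal window held none of the 8 motifs, which says only that these letters are not there. The proximal window held 2 CCAAT matches (33.8% of 32851 RefSeq windows of that length have at least 1) and 1 PU box (23.3% of windows). The Mitf upstream window was 58.6% GC with 14 CpG, and it held 1 C/EBP match (9.4% of windows cut to the same 244 bases) and 1 RUNX match (13.8%). The Mitf downstream window was 36% GC with 3 CpG. It held the full CRE, present in 1.55% of windows, and 1 TATA motif on the opposite strand (12.4% of windows). The Tfec window, 39.2% GC, held 1 RUNX match (14% of windows). The Cebpb window was 81.6% GC with 41 CpG and carried the CRE core 3 times, against at least 1 match in 17.8% of windows. The E-box was in none of the 6 windows shown. Each match is a description of letters and not a measured binding site.

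All 9 factors were detected, defined as at least 1 TPM (a level per transcript length, scaled by the authors to a fixed total per library) in all 3 libraries. Of all annotated genes 17.4% met that threshold, and of 22028 protein-coding genes 41.4% did. At 5 TPM or more 8 of the 9 remained, against 26.1% of protein-coding genes. The read-based quantification, a separate deposited table made without an alignment file, also gave 8 of 9 at 1 TPM, against 35.2%. Cebpd was the exception in both counts. In bulk RNA, fewer cells expressing a gene and less RNA per cell cannot be told apart. The median over the 9 mean levels was 17.25 TPM, and that over 9106 detected nuclear protein-coding genes was 8.585 TPM.

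The levels fell into 3 ranges. Spi1, Maf and Cebpb averaged between 53.8 and 99.8 TPM. Cebpa, Mitf, Runx1, Tfeb and Tfec lay between 10.05 and 18.1 TPM, and Cebpd stood alone at 2.27 TPM. The order was read from ratios within a library, as log2 of (TPM + 1) over (TPM + 1). A pair of neighbours was called ordered where the sign was the same in 3 of 3 libraries and the mean exceeded 1 SD. By that measure 6 of 8 neighbour pairs were ordered. Neighbours were paired by their mean TPM in the same libraries, so a positive mean was fixed by the pairing and the count describes only how evenly the libraries share it. Cebpa and Mitf were not told apart (mean difference 0.07 ± 0.18 log2, SD, n = 3), nor were Tfeb and Tfec (0.08 ± 0.08 log2). In the read-based table both differences turned, to -0.14 and -0.13 log2. An exact sign-flip permutation over 3 libraries cannot go below a two-sided p of 0.25, so no p-value is given for any pair.

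**Figure D1:**
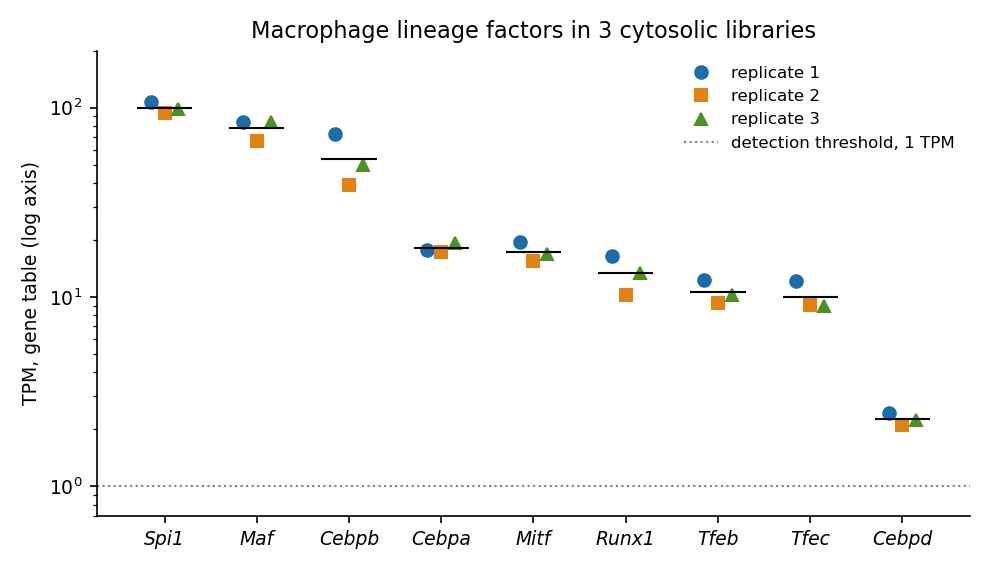
TPM of the 9 factors in the deposited gene table (log axis), with 1 symbol per replicate, a bar at the mean of 3 libraries and a dotted line at the detection threshold of 1 TPM. Spi1, Maf and Cebpb form the upper range with means of 99.8, 78.1 and 53.8 TPM, and Cebpd is lowest at 2.27 TPM.

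Spi1, which encodes the pioneer factor PU.1 (gene ENSMUSG00000002111.8, chr2:91082390-91115756, plus strand), was the most abundant of the 9. It had 107.4, 93.5 and 98.63 TPM in replicates 1, 2 and 3, a mean of 99.8 ± 7.03 TPM (SD, n = 3). That placed it at rank 472 of 22028 protein-coding genes, above 97.9% of them. The libraries lay close together, with a coefficient of variation of 7.04%. Among its nearest relatives, Spic, a factor of red-pulp and iron-handling macrophages, averaged 6.11 ± 1.67 TPM (SD, n = 3) and Spib, a factor of B cells and plasmacytoid dendritic cells, 0.153 TPM. Spi1 thus held 94.2 ± 1.11% of the summed TPM of these 3 genes (SD, n = 3). It exceeded Spib by 6.45 ± 0.10 log2 and Irf8, whose protein binds composite sites with PU.1, by 0.99 ± 0.12 log2 (SD, n = 3), with the same sign in 3 of 3 libraries. The size and the spread of the Spib difference depended on the 1 TPM added to each level. Without that addition the difference was 9.44 ± 0.61 log2 (SD, n = 3).

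One coding transcript carried most Spi1 RNA. Spi1-201 took 69.5%, 70.6% and 71.8% of the gene's TPM in the alignment-based transcript table and 63.4%, 60.8% and 60.2% in the read-based one. A start 13706 bases upstream, shared by Spi1-202 and Spi1-204, held 24.7 ± 0.88% and 31.4 ± 2.16% in these tables (SD, n = 3). Most of that was Spi1-202, annotated as a processed transcript without a coding frame, at 19.2 ± 1.59% and 19.4 ± 1.20%. Spi1-202 has 497 bases found in no other Spi1 transcript, so reads can be assigned to it directly. By estimated counts, which are not divided by length, Spi1-201 held 92.6% in the alignment-based table.

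Among the described C/EBP genes, Cebpb led, Cebpa followed and Cebpd was near the detection threshold. Cebpb (ENSMUSG00000056501.3, chr2:167688915-167690418, plus strand), the C/EBP factor tied to inflammatory gene activation, had 72.43, 39.09 and 49.99 TPM, a mean of 53.8 ± 17.0 TPM (SD, n = 3). Replicate 1 was highest and replicate 2 lowest. Tmem189, on the opposite strand and overlapping Cebpb, had 42.96, 34.28 and 33.3 TPM. Strandedness is not given in the sources used here, so reads from the shared stretch cannot be told apart.

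Cebpa (ENSMUSG00000034957.10, chr7:35119293-35121928, plus strand) sets the myeloid fate in progenitors and restrains their division. It had 17.7, 17.25 and 19.41 TPM, a mean of 18.1 ± 1.14 TPM (SD, n = 3). Its coefficient of variation was 6.29% on deposited TPM but 13.9% on TPM rescaled over nuclear protein-coding genes, so its spread depended on the scale. Cebpb exceeded Cebpa in 3 of 3 libraries by 1.48 ± 0.44 log2 (SD, n = 3), or 1.97, 1.14 and 1.32 in the single libraries. The single-exon transcript Cebpa-201 held 75.6%, 91.8% and 90.3% of its TPM in the alignment-based table and 91.4%, 95% and 94.3% in the read-based one. Cebpa-201 has 475 bases of its own, whereas the spliced Cebpa-202 has 10, which limits how well reads can be assigned to Cebpa-202.

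Cebpd (ENSMUSG00000071637.5, chr16:15887286-15891031, plus strand), an acute-phase C/EBP gene, had 2.45, 2.1 and 2.25 TPM, a mean of 2.27 ± 0.176 TPM (SD, n = 3). These values rest on 475.81, 594.36 and 493.64 expected counts. Spidr, on the opposite strand and overlapping Cebpd, had 3.22, 3.09 and 3.13 TPM. Reads from their shared stretch cannot be told apart here, and their part in the Cebpd level was not tested. In the read-based table Cebpd stayed below 1 TPM, at 0.867, 0.893 and 0.806. In the gene table Cebpb exceeded Cebpd by 4.03 ± 0.36 log2 of (TPM + 1) and Cebpa exceeded it by 2.55 ± 0.11 log2 (SD, n = 3). Without the added 1 TPM these differences were 4.53 ± 0.34 and 3.00 ± 0.13 log2. Of the other relatives, Cebpg, a partner without an activation domain, averaged 8.86 TPM, and the granulocyte factor Cebpe 0.06 TPM. Ddit3, the stress-induced relative known as CHOP, stood above all 3 described C/EBP genes with 131.33, 147.48 and 83.87 TPM. The symbol Ddit3 has 2 gene identifiers, and these values belong to 1 of them. Of the summed TPM of Cebpa, Cebpb, Cebpd, Cebpe and Cebpg, Cebpb took 63.8 ± 6.57%, Cebpa 22.4 ± 4.47% and Cebpd 2.78 ± 0.356% (SD, n = 3).

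**Figure D2:**
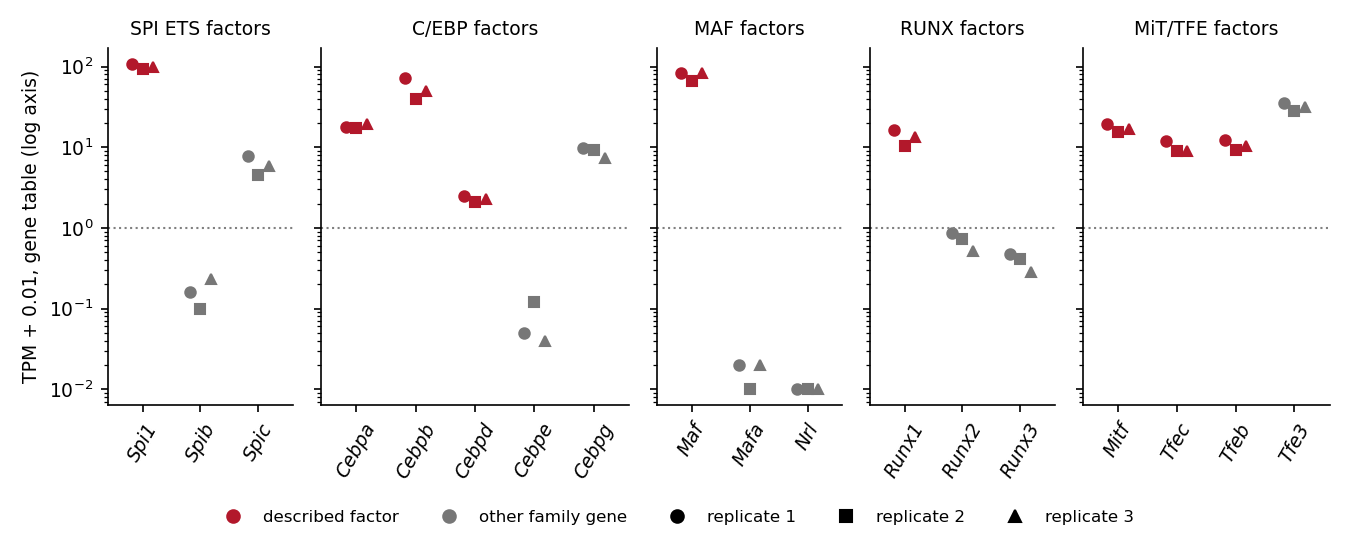
TPM plus 0.01 (log axis) of the 9 described factors in red and of other reported genes of their families in grey, with 1 symbol per replicate and a dotted line at 1 TPM. Spi1 and Runx1 lie above the other plotted genes of their families in every library, whereas Tfe3 lies above Mitf, Tfec and Tfeb.

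Runx1 (ENSMUSG00000022952.17, chr16:92601466-92826149, minus strand), needed for the first blood stem cells and later for myeloid enhancers, had 16.39, 10.25 and 13.35 TPM. Its mean was 13.3 ± 3.07 TPM (SD, n = 3), with replicate 2 lowest. It was the most abundant RUNX gene by RNA, holding 92.4 ± 2.13% of the summed TPM of the 3 RUNX genes. Runx2, the bone factor, averaged 0.693 TPM and Runx3, a lymphocyte and neuron factor, 0.377 TPM, both under 1 TPM in every library. Runx1 exceeded them by 3.06 ± 0.30 and 3.36 ± 0.31 log2 of (TPM + 1) (SD, n = 3). Without the added 1 TPM these differences were larger, at 4.27 ± 0.43 and 5.15 ± 0.47 log2. Its partner Cbfb averaged 15.8 ± 0.745 TPM, and the pair could not be ordered (-0.25 ± 0.29 log2, SD, n = 3), although Runx1 was the lower in each library.

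Transcripts annotated to the distal Runx1 start, whose promoter is printed first above, took a larger share than those of the proximal start in every library. Transcripts from the distal start took 54.6%, 66.8% and 62.5% of Runx1 TPM, a mean of 61.3 ± 6.19%. Those from the proximal start, 128821 bases downstream, took 30.6%, 23.6% and 25.8%, a mean of 26.7 ± 3.59% (SD, n = 3). The read-based table gave 58.1 ± 6.00% and 24.8 ± 3.93%. The start of Runx1-203, 130024 bases from the distal one, held 10.4 ± 2.30% in the alignment-based table, but that transcript has 0 bases of its own. With starts within 1500 bases joined, the proximal side came to 37.1 ± 5.88%, still below the distal side. Of single transcripts, the full-length distal Runx1-201 led with 47.2 ± 10.04% and the proximal Runx1-202 followed with 20.6 ± 2.73%. Runx1-201 has 2265 bases of its own but Runx1-202 only 3, which limits how well the share of Runx1-202 is set. The proximal share also includes Runx1-206, an intron-retaining transcript, at 6.13 ± 3.62% (SD, n = 3). The short distal Runx1-204 differed between tables, at 4.35 ± 1.56% and 14.98 ± 6.37%, and rested on 3.66, 3.71 and 6.33 alignment-based counts. Without Runx1-204 and with Runx1-203 counted as proximal, the distal share was 57.0 ± 5.98% against 37.1% in the alignment-based table. In the read-based table it was 43.1 ± 3.86% against 39.7 ± 5.76% (SD, n = 3), and there replicate 1 had 41.5% distal and 46.1% proximal, so the order depended on these short transcripts.

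Maf (ENSMUSG00000055435.6, chr8:115682942-115707794, minus strand), encoding c-MAF, had 83.7, 66.68 and 84.01 TPM, a mean of 78.1 ± 9.92 TPM (SD, n = 3). By reads it was the largest of the 9, with 25767, 29426 and 31438 expected counts against 8101, 10396 and 9127 for Spi1. The mean transcript length was 5796 bases for Maf and 1604 bases for Spi1. In TPM Spi1 was the higher in each library, by 0.36 ± 0.13 log2 of (TPM + 1) (SD, n = 3). On expected counts per kilobase of transcript length the mean difference was smaller, at 0.20 ± 0.13 log2 (SD, n = 3). Of its relatives, the small MAF genes, whose proteins lack an activation domain, were detected, with means of 12.4 ± 2.10 TPM for Mafg, 8.25 ± 1.55 TPM for Mafk and 4.89 ± 2.16 TPM for Maff (SD, n = 3). By contrast Mafa, a factor of pancreatic beta cells, averaged 0.00667 TPM, and Nrl, a factor of rod photoreceptors, was listed at 0 in every library.

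The single-exon Maf-202 took 82.0 ± 2.43% of Maf TPM and the spliced Maf-201 the other 17.97 ± 2.43% (SD, n = 3), with 83.1% and 16.9% in the read-based table. Gm15655, an antisense gene over the start of Maf, had 23.96, 41.25 and 67.43 TPM. In expected counts it had 296, 740 and 960. Replicate 3 was highest for both genes on either measure. In TPM the lowest library differed: Maf was lowest in replicate 2 (83.7, 66.68 and 84.01 TPM) and Gm15655 in replicate 1. Replicate 1 was lowest for both in expected counts, which are not adjusted for library size. Reads from the shared stretch cannot be assigned to a strand here, and their part in the Maf level was not tested.

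The MiT/TFE genes were led by Tfe3, a relative outside the 9. Tfe3 had 34.8, 27.96 and 31.47 TPM, or 45.3 ± 1.20% of the summed TPM of the 4 genes (SD, n = 3). Mitf took 24.9 ± 0.110%, Tfeb 15.3 ± 0.296% and Tfec 14.4 ± 1.04%. The shares hardly moved between libraries, and the read-based table kept Tfe3 first with 42.8 ± 1.70%. Mitf, Tfeb and Tfec lay below Tfe3 in 3 of 3 libraries by 0.83 ± 0.03, 1.48 ± 0.05 and 1.56 ± 0.13 log2 (SD, n = 3).

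Mitf (ENSMUSG00000035158.15, chr6:97807052-98021349, plus strand), known for melanocytes, mast cells and osteoclasts, had 19.5, 15.45 and 16.8 TPM, a mean of 17.25 ± 2.06 TPM (SD, n = 3). It exceeded Tfec by 0.73 ± 0.09 log2 and Tfeb by 0.65 ± 0.03 log2. Most of its TPM was assigned to transcripts annotated to the upstream start. Their shares were 85.5%, 79.5% and 86.0% in the alignment-based table and 82.6%, 88.5% and 78.7% in the read-based one. Mitf-202, the longest of these, has 2642 bases in no other Mitf transcript. Where those bases lie relative to the start was not examined, so the shares do not measure start use directly. Mitf-202 alone held 72.5 ± 3.31% and 56.9 ± 7.65% (SD, n = 3). Mitf-207, which shares that start and has 6 bases of its own, took 4.66% and 18.8%. The start of Mitf-203, 122747 bases in, was listed at 0 in the alignment-based table and held 3.19 ± 1.59% in the read-based one.

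The melanocyte-type start, 184740 bases downstream of the first, was assigned 15.8 ± 3.76% and 12.1 ± 2.29% of Mitf TPM in the 2 tables (SD, n = 3). Nearly all of the first value belonged to Mitf-208, at 15.1 ± 3.93%, a transcript with 0 bases of its own. Mitf-201, the long coding form of that start, took 0.67 ± 0.718% in the alignment-based table and 3.85 ± 1.48% in the read-based one. Only 162 bases set this start's transcripts apart from those of the other starts. The 8 melanocyte genes looked up were all under 1 TPM in every library, with a median of 0.00167 TPM. Among them Tyr, Tyrp1, Pax3 and Slc45a2 were listed at 0, and Pmel, the highest, averaged 0.127 TPM.

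Tfec (ENSMUSG00000029553.10, chr6:16833373-16898441, minus strand), a family member restricted largely to the macrophage lineage, had 12.09, 9.07 and 8.99 TPM, a mean of 10.05 ± 1.77 TPM (SD, n = 3). Replicate 1 was the highest. The most upstream start held 88.8 ± 3.6% of Tfec TPM and 84.7 ± 4.02% in the read-based table. Tfec-201, the full coding form, held 78.6 ± 5.03% and 76.0 ± 5.21% (SD, n = 3).

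Tfeb (ENSMUSG00000023990.18, chr17:47737030-47792419, plus strand), the best-known switch of lysosome formation, had 12.33, 9.34 and 10.27 TPM, a mean of 10.6 ± 1.53 TPM (SD, n = 3). It has 15 annotated transcripts, and it was the 1 gene of the 8 with several transcripts that lacked a stable leading transcript. Tfeb-212, whose annotated 5′ end is incomplete and which has 0 bases of its own, took 51.3%, 51.9% and 40.5% in the alignment-based table. Tfeb-202, from the most upstream start, took 43.6%, 44.2% and 50.6% there. In the read-based table Tfeb-202 led in each library with 47.4%, 63.5% and 58.8%, against 31.1%, 31.5% and 11.6% for Tfeb-212. The start of Tfeb-201, 48690 bases in, was listed at 0 in both tables. Of the 8 genes with several transcripts, the other 7 had the same leading transcript in both tables and in 3 of 3 libraries. Cebpb has 1 annotated transcript.

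**Figure D3:**
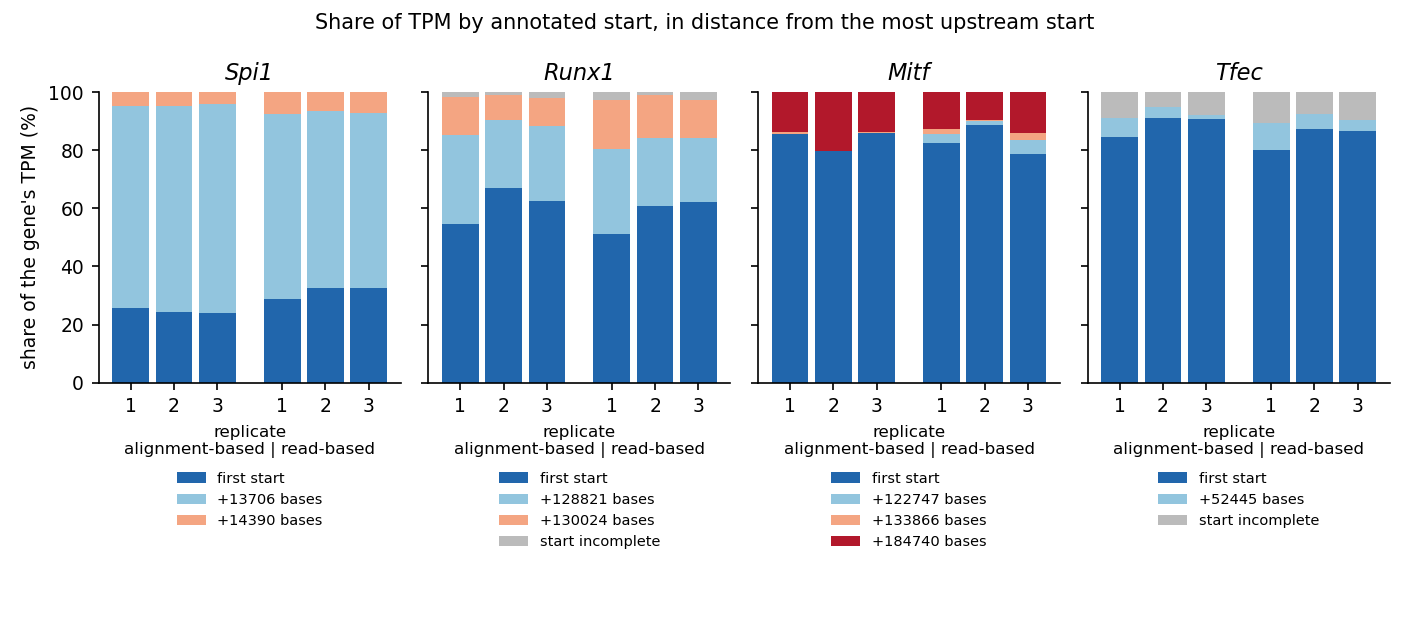
Share of each gene's TPM (%) by annotated start, for Spi1, Runx1, Mitf and Tfec, with bars for replicates 1 to 3 of the alignment-based table on the left and of the read-based table on the right. Colours give the distance in bases from the most upstream start, and grey marks transcripts with an incomplete 5′ end. The first start holds 61.3% of Runx1 and 83.7% of Mitf on average in the alignment-based table, and the second start holds 70.7% of Spi1.

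Replicates differed in their intron-retaining RNA, and the factors with such transcripts differed the same way. Runx1, Mitf, Tfec and Tfeb are the 4 that have annotated transcripts of this kind. Runx1-206 took 8.05%, 1.95% and 8.39% of Runx1 TPM in replicates 1, 2 and 3, and Mitf-206 took 7.64%, 1.94% and 10.1% of Mitf TPM. The 2 such transcripts of Tfec together held 17.2%, 10.4% and 12.4%, and those of Tfeb 1.46%, 0% and 1.85%. Replicate 2 was lowest for 4 of 4 genes in both tables. That was common in these libraries: among 5578 detected protein-coding genes with such RNA, 76.3% were lowest in replicate 2 (80.7% of 5700 in the read-based table). Their median share was 4.69%, 1.71% and 5.94%. Malat1 and Neat1, long non-coding RNAs kept in the nucleus, were also lowest in replicate 2, at 1445, 485 and 1726 TPM for Malat1 and 87.7, 16.1 and 88.3 TPM for Neat1. The part of nuclear RNA in these shares was not tested.

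**Figure D4:**
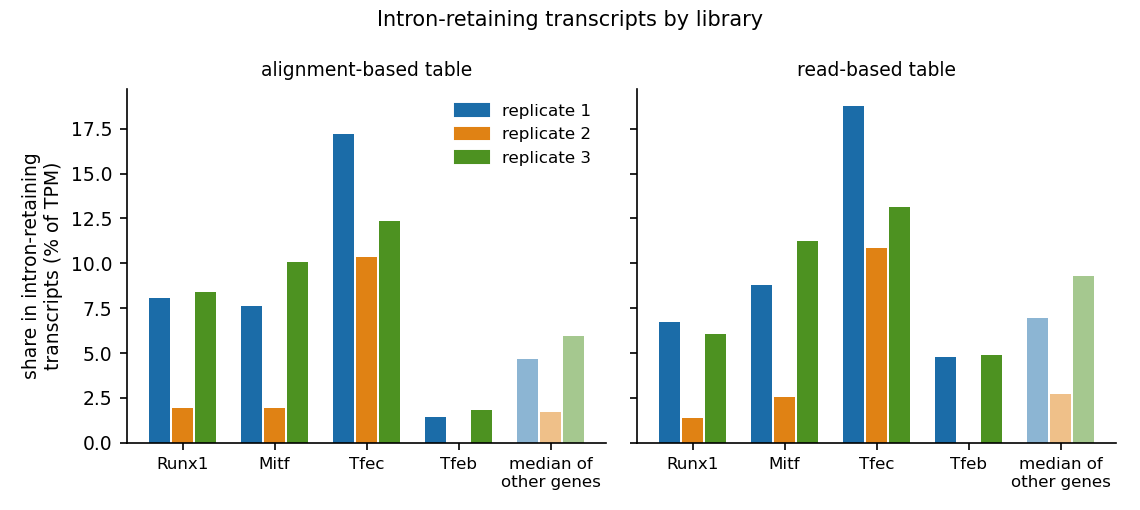
Share of a gene's TPM (%) in annotated intron-retaining transcripts, for the 4 factors that have them and, in paler bars, the median of detected protein-coding genes with such RNA, by replicate and table. Replicate 2 is lowest for each of the 4 genes, at 1.95% for Runx1 and 10.4% for Tfec in the alignment-based table, and for the median (1.71%).

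To compare gene levels between libraries without the share taken by other RNA, each library's log2 TPM was set against the average of the other libraries. The median over 9106 detected genes, all nuclear-encoded and protein-coding, was taken off. Cebpb deviated most, by 0.48 in replicate 1 and -0.49 in replicate 2. In size these exceeded the deviations of 95.9% and 94.2% of the 9106 genes. Runx1 deviated by 0.25, -0.39 and 0.13, so replicate 2 was low for both genes. The sizes for Runx1 depended on the measure. They were 0.18, -0.21 and 0.02 on TMM-normalized expected counts, and 0.17, -0.43 and 0.25 in the read-based table. Cebpa went another way, with -0.28 in replicate 1 and 0.24 in replicate 3, and Maf had -0.19 in replicate 2 and 0.25 in replicate 3. The other 5 genes stayed within 0.19. Replicate 2 held the lowest value for 5 of the 9, against 35.0% of the 9106 genes. On log2(TPM + 1) of the deposited values, the SD of Cebpb over libraries (0.44) was larger than that of 97.2% of detected genes and the SD of Runx1 (0.31) larger than that of 90.5%. On rescaled TPM Cebpb (0.32) and Runx1 (0.23) exceeded 93.2% and 83.7%. The SDs of Spi1 and Cebpd were low on both scales, larger than those of 24.97% and 15.9% of genes on deposited TPM and of 22.0% and 19.5% on rescaled TPM. That of Cebpa was not, larger than 18.9% of genes on deposited TPM (0.08) and 75.6% on rescaled TPM (0.20). Mitf, Tfec and Tfeb moved the other way, with SDs of 0.16, 0.22 and 0.19 on deposited TPM and 0.07, 0.09 and 0.09 on rescaled TPM.

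**Figure D5:**
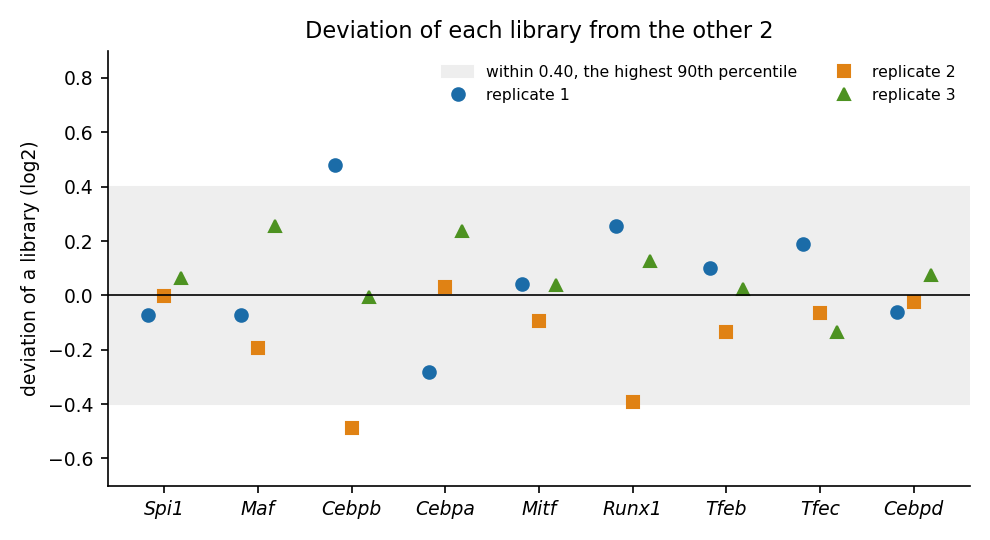
Deviation of each library (log2) from the other 2 for the 9 factors, 1 symbol per replicate, after the median over detected genes was taken off. The grey band spans the largest of the 90th percentiles of size over detected genes, 0.40. Cebpb in replicates 1 and 2 lies outside it at 0.48 and -0.49, and Runx1 in replicate 2 lies at its edge at -0.39.

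Relatives, partners and known targets were looked up as lists. Of 22 ETS, C/EBP, MAF, RUNX and MiT/TFE relatives 15 were detected, and 16 on TPM rescaled over nuclear protein-coding genes. Ddit3, Tfe3, Fli1 (26.1 ± 1.46 TPM) and Elf1 (25.1 ± 2.92 TPM, SD, n = 3), both widely expressed blood ETS factors, were the highest. Cebpe, Ets1, Mafa and Nrl were among the 7 under 1 TPM in every library. The list's median level was 7.53 TPM, against 0.177 TPM over all 22015 nuclear protein-coding genes, a figure that also serves for the lists below. Beside each count of detected genes stands the 41.4% of all protein-coding genes that were detected.

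Of 25 partners and regulators 23 were detected, with a median of 15.4 TPM over the list. The highest were Ywhae (94.9 ± 11.6 TPM), a 14-3-3 protein of the class that holds phosphorylated TFEB in the cytosol, and Lamtor1 (79.5 ± 4.97 TPM), an anchor of the lysosomal mTORC1 platform. Fnip2 (76.7 ± 16.1 TPM, SD, n = 3), a folliculin partner in Rag GTPase signalling, and Jun (61.1 ± 11.0 TPM), a leucine zipper partner, came next. Irf8 averaged 50.1 ± 7.13 TPM. Irf4, the relative that also pairs with PU.1, averaged 0.25 TPM, and Trib2, an adaptor for C/EBPα breakdown, was listed at 0. Its relative Trib1 was detected at 8.34 ± 3.17 TPM (SD, n = 3).

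Among 19 other transcription factors of macrophages 17 were detected, with a median of 12.9 TPM. Egr1, an immediate-early gene, led with 173 ± 47.9 TPM, followed by Id2 (153 ± 45.5 TPM), Zeb2 (152 ± 29.9 TPM) and Nfe2l2 (85.7 ± 19.0 TPM, SD, n = 3). Spi1 lay between Zeb2 and Nfe2l2 in mean level. Gata6, the factor of peritoneal macrophages, was listed at 0. In contrast, 2 of 22 lineage factors of other blood cells were detected, Tal1 at 1.32 TPM and Batf3 at 1.92 TPM, and 20 were under 1 TPM in every library. The median of that list was 0.0233 TPM. Bcl11b, Cebpe, Ebf1 and Eomes, factors of T cells, granulocytes, B cells and effector lymphocytes, averaged 0.06 TPM or less.

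All 19 listed myeloid targets of PU.1 and C/EBP factors were detected, with a median of 129.5 TPM. Lyz2, for lysozyme, averaged 3020 ± 549 TPM, the protease Ctss 1260 ± 167 TPM, Cd68 618 ± 59.2 TPM and Adgre1, for F4/80, 605 ± 163 TPM (SD, n = 3). All 28 lysosomal and autophagy targets of the MiT/TFE factors were also detected, with a median of 64.1 TPM. Psap averaged 3603 ± 264 TPM, Ctsd 2509 ± 12.7 TPM, Ctsb 2070 ± 268 TPM and Gpnmb 1461 ± 204 TPM. Both lists were drawn from genes known in macrophages and with earlier results in view, so their full detection is no independent evidence, and no level was tied to a factor by a test. Of 13 osteoclast genes under PU.1 and MITF 6 were detected (median 0.737 TPM), a share near the 41.4% of all protein-coding genes. The highest were the chloride transporter Clcn7 (82.8 TPM), its subunit Ostm1 (21.1 TPM), the RANKL receptor Tnfrsf11a (19.8 TPM) and Nfatc1 (11.4 TPM). Calcr, Ctsk, Dcstamp and Itgb3 were among the 7 under 1 TPM.

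The macrophage label was checked against marker genes. All 8 macrophage markers were detected, with summed levels of 4071 to 5638 TPM per library. Of 7 neutrophil markers S100a8 and S100a9 were detected, with summed levels of all 7 between 7 and 9.7 TPM, while Ly6g was listed at 0. None of the B cell, T and NK cell, dendritic cell, mast cell, erythroid, fibroblast and endothelial or melanocyte markers reached 1 TPM in any library. Of 5 osteoclast markers Acp5 was detected.

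The libraries held 38197192, 46327891 and 38685666 expected counts on genes, of which the 9 factors took 0.135%, 0.127% and 0.150%. The cytosolic 7SL RNA took 54.4% to 63.0% of all TPM, and nuclear-encoded protein-coding genes 27.7% to 33.3%. On TPM rescaled over those protein-coding genes, Spi1 averaged 337 ± 17.5, Cebpb 179 ± 39.0 and Cebpd 7.66 ± 0.419 (SD, n = 3), with all 9 detected. Read-based levels lay lower, by a median of -1.29 log2 over 9095 genes, and the described genes shifted by -1.05 to -1.41, so levels were set side by side only within a table.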

How the data were processed

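Total RNA depleted of ribosomal RNA was sequenced in 3 libraries of 1 group. The 9 genes, the gene lists and the gene pairs were chosen with earlier results of these data known. Per the file headers, the deposited gene table gives expected counts, TPM and FPKM per gene. The deposited bounds of each TPM, made by the authors per the file headers, are entered as signal values since the bounds, unlike TPM itself, have no fixed sum, and no result rests on them. One deposited transcript table gives expected counts, TPM, FPKM and each isoform's percent of its gene, made from alignments (alignment-based). The other deposited transcript table gives TPM and estimated counts, derived straight from reads with an index (read-based). Per the accompanying text files the authors used build mm10 and annotation M21. Aligner and quantifier names were not given in the sources used here, nor was strandedness. Since TPM as deposited has a fixed sum, it moves with every abundant RNA.

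Rows that name no gene held 0.356%, 0.125% and 0.104% of expected counts and were left out. Deviations were recomputed on whole-number roundings of the expected counts with TMM (edgeR 4.0.16 in R 4.3.3) and DESeq2 1.42.0 size factors. Over 12752 genes the common coefficient of biological variation was 0.189. Pairs of libraries differed by chi-square values of 47.3 to 115 per degree of freedom, so none is a copy of another. These values cannot tell technical repeats from separate cultures. Transcripts whose starts lay within 500 bases formed 1 start group. With 1 group and no control, no test between groups was made, and values are mean ± SD. Named genes are all 9 factors, the genes of the pairs, in each list the 4 highest and up to 4 under 1 TPM in alphabetical order, and transcripts with at least 10% of a gene. Other genes and transcripts named were chosen after their values were seen, as were the families whose shares are given. One gene of a list and of a pair is not reported here by name. Scripts were tested on simulated data. Python 3.11.15, numpy 2.4.6, pandas 2.3.3 and matplotlib 3.10.9 were used.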

Additional observations from a re-analysis of the deposited data

How the results depend on the processing

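The count of detected factors stayed between 8 and 9 under every threshold, scale and table tried and with each replicate left out in turn. Ordered pairs numbered 16 to 18 of 18 fixed pairs and 6 to 8 of 8 neighbour pairs. The counts of 18 and 8 came with replicate 1 left out, and with fewer libraries the rule is easier to meet. With all 3 libraries they were 16 or 17 and 6 or 7. Of 162 recomputed fixed pair ratios 40 moved by more than 1 SD, 11 of them in the read-based table. Among 72 recomputed neighbour ratios 7 did. The 2 pairs of neighbours that were not ordered, Cebpa with Mitf and Tfeb with Tfec, changed sign in the read-based table. Deviations under 0.1 in size changed sign for Cebpb (replicate 3), Cebpd (replicates 2 and 3), Mitf (replicate 3) and Spi1 (replicate 2) under another scaling, filter or table, while Cebpb in replicates 1 and 2 and Runx1 in all 3 kept theirs. The size for Runx1 in replicate 2 ranged from -0.21 with TMM to -0.43 in the read-based table. Of 22 lineage factors of other blood cells 0 were detected at 5 TPM or more and 0 in the read-based table, against 2 at 1 TPM in the gene table. The count rose to 3 on TPM rescaled over nuclear protein-coding genes. Absolute levels moved with the scale: 29 of 72 recomputed levels moved by more than 1 SD, under rescaled TPM, FPKM, the read-based table or, for Cebpd, another pseudocount. Of 48 recomputed transcript shares 13 moved by more than 1 SD, Spi1-201 to 92.6% and Mitf-202 to 91.4% by expected counts among them. Joining starts within 1500 bases, an alternative chosen after the data were seen, moved the leading Spi1 start to 75.3% and merged both Maf starts. Leaving out Runx1-204 and counting Runx1-203 as proximal, also added later, turned the order of the Runx1 starts in replicate 1 of the read-based table. Rescaling TPM over nuclear protein-coding genes, also added later, raised the coefficient of variation of Cebpa to 13.9%, against 6.29%, and lowered those of Mitf, Tfec and Tfeb to 4.92%, 6.62% and 6.09%. No paired analysis was possible because the study has 1 group, so no replicate number is shared between groups. With 3 libraries and no control, spread can be described but not tested.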
